A study of Mus musculus with 20 samples.

Results

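The SoxF factors Sox7, Sox17 and Sox18, the SoxC factor Sox4 and the forkhead factors Foxf1, Foxf2, Foxq1, Foxc1, Foxc2 and Foxo1 were followed in sorted endothelial cells of the mouse sciatic nerve. They are 10 of the 55376 genes in the count tables, taken by symbol as a set of transcription factors known from blood vessels. In the Tomato experiment the driver Cdh5(PAC)-CreERT2, active in endothelium, switched on an R26-Tomato LSL reporter. Its 5 intact libraries were made from uninjured nerves that had been pooled. A further 5 libraries were taken from the nerve bridge 7 days after injury (7 dpi) and 4 at 14 days (14 dpi), and all 3 groups were labelled Plxnd1 WT. In the Cherry experiment a Kdr-Cherry reporter marked the cells, which came from the 7 dpi bridge of mice with Cdh5-CreER and Plxnd1 fl/fl (KO, 3 libraries) or of controls (WT, 3 libraries). The study's description names the injured tissue a bridge and a condition label names a crush. No source used here says whether the WT mice carried Cre or which animals gave a library. The p-values therefore rest on differences among libraries that may in part be technical.

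SoxF proteins bind DNA through an HMG box and act together, often in place of one another, in the development of arteries, veins and lymphatics. Forkhead proteins bind through a winged helix. In brain vessels, Wnt signalling through beta-catenin maintains the blood-brain barrier, and Foxq1 and Foxf2 are among the transcription factors known from that endothelium, while Foxc1 and Foxc2 are made in mesenchyme as well as in vessels. Foxo1 holds endothelial cells in quiescence and is restrained by the PI3K and AKT pathway.

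Total counts per library were 19.06 to 34.18 M in the Tomato experiment and 19.25 to 33.79 M in the Cherry experiment. The deleted gene Plxnd1, a semaphorin receptor, stood at 131.4, 160.5 and 160.1 CPM (counts scaled to library size with TMM) in the KO libraries, against 350, 324 and 343 CPM in the WT libraries. This is a log2 fold change of -1.23 ± 0.10 (SE; adjusted p = 0.000129 in edgeR). Endothelial identity was present in every group: the 15 pan-endothelial markers summed to 6550 to 16500 CPM in intact libraries, 9710 to 14900 CPM at 7 dpi, 8560 to 10600 CPM at 14 dpi, 15600 to 16400 CPM in KO and 14800 to 16000 CPM in WT. The Tomato libraries also held RNA of genes that mark other cells. The 8 fibroblast markers summed to 9070 to 16600 CPM in intact libraries, 4430 to 19700 CPM at 7 dpi and 16200 to 35700 CPM at 14 dpi, but to 839 to 3280 CPM in KO and 921 to 2290 CPM in WT. In bulk samples, fewer cells of a type and less RNA per cell cannot be told apart.

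The factors lie on 6 chromosomes (GRCm38). Sox17 is at chr1:4490931-4497354 on the minus strand, Sox18 at chr2:181669836-181671640 on the minus strand and Sox7 at chr14:63943673-63950732 on the plus strand. Sox4 is a gene of 1 exon at chr13:28948919-28953713 on the minus strand, and Foxo1 is at chr3:52268336-52353221 on the plus strand. The other 5 forkhead genes form a pair of clusters on plus strands. Foxq1 (chr13:31556134-31560976), Foxf2 (chr13:31625816-31631403) and Foxc1 (chr13:31806633-31812476) follow each other on chromosome 13, and Foxf1 (chr8:121084386-121088144) and Foxc2 (chr8:121116171-121118895) lie 28027 bases apart on chromosome 8. Spans of 7 of the 10 genes overlap another gene of the GENCODE M21 annotation, among them A530084C06Rik opposite Foxq1 and Gm20388 across Foxf1 and Foxc2. No source used here gives the strand setting of the counting, so reads from partners on the opposite strand may not have been told apart. Gm20388 lies on the same strand as Foxf1 and Foxc2, where no strand setting could tell reads apart.

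Of the 10 genes, RefSeq promoter windows (GRCm38.p6, 250 bases before to 50 bases after the start) were matched for Sox4, Foxf2, Foxc1 and Foxo1. The windows of Sox4 (chr13:28953650-28953949, minus strand), which rose after injury, and of Foxc1 (chr13:31806396-31806695, plus strand), which fell at 7 dpi, are shown as the members of opposite direction. That of Fendrr (chr8:121083061-121083360, minus strand), a long noncoding RNA gene beside Foxf1, is shown because it held a forkhead motif, in capitals.
Sox4: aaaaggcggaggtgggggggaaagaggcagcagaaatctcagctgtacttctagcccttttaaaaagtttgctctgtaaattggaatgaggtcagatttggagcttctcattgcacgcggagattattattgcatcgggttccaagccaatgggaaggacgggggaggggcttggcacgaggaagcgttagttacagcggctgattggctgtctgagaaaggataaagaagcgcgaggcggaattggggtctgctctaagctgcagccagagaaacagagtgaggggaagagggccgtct
Foxc1: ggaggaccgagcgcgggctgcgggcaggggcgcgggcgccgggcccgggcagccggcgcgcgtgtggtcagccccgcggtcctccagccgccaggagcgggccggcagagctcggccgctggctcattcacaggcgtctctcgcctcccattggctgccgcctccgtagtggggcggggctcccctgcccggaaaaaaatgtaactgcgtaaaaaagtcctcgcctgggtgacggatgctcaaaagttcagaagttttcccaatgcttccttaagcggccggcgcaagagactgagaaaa
Fendrr: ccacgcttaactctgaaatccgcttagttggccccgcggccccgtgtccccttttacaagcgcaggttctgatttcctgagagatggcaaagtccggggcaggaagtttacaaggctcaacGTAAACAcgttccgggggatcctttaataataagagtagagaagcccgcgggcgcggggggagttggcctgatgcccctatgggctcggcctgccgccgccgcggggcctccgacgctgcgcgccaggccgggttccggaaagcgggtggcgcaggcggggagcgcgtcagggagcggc
The 300 bases of Sox4 were 52% G or C with 12 CpG, and those of Foxc1 were 67.3% G or C with 32 CpG, against a median of 52.7% over 32851 promoters. Both strands were searched for AACAAT (a Sox core), GTAAACA (forkhead), CTTTGAT (TCF and LEF) and GTGGGAA (RBPJ, the Notch effector), none of which overlapped another in these windows. None of the 4 motifs was in the windows of Sox4, Foxf2, Foxc1 or Foxo1, or in that of Plxnd1, which was also searched. Over all promoters, 10.7% held AACAAT, 3.65% held GTAAACA, 3.73% held CTTTGAT and 6.38% held GTGGGAA. The GTAAACA match of Fendrr, the only match in the windows searched around these genes, lay 129 to 123 bases before its start.

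Levels of different genes were ranked only per length, as TPM (counts per length, scaled to a common total). Sox18 was the most abundant of the 10 in every group, at 420 ± 105 TPM (SD, n = 5) in intact nerve, 585 ± 44.9 TPM at 7 dpi (n = 5) and 437 ± 43.3 TPM at 14 dpi (n = 4). Its lowest library lay above the highest library of the next gene in each group. In intact nerve Sox17 came next at 197 ± 57.5 TPM, then Sox7 at 80.6 ± 34.1 TPM and Foxc2 at 55.8 ± 25.5 TPM, and the ranges of Sox7 and Foxc2 overlapped. Foxo1 at 13 ± 3.5 TPM, Foxf1 at 10.2 ± 1.97 TPM and Foxq1 at 7.91 ± 1.5 TPM followed, and Foxf1 overlapped both of the others. Foxc1 (4.86 ± 0.865 TPM) overlapped Sox4 (3.68 ± 1.42 TPM), and Foxf2 was lowest at 0.264 ± 0.154 TPM. At 7 dpi Sox7 (162 ± 39.5 TPM) and Sox17 (121 ± 35 TPM) overlapped, Sox4 was at 13.1 ± 6.47 TPM and Foxq1 was lowest on average at 0.208 ± 0.15 TPM. At 14 dpi Sox17 (116 ± 22.5 TPM) and Sox7 (111 ± 17.8 TPM) overlapped again, and Foxq1 was at 0.574 ± 0.116 TPM, above Foxf2 (0.174 ± 0.139 TPM) in every library.

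**Figure D1:**
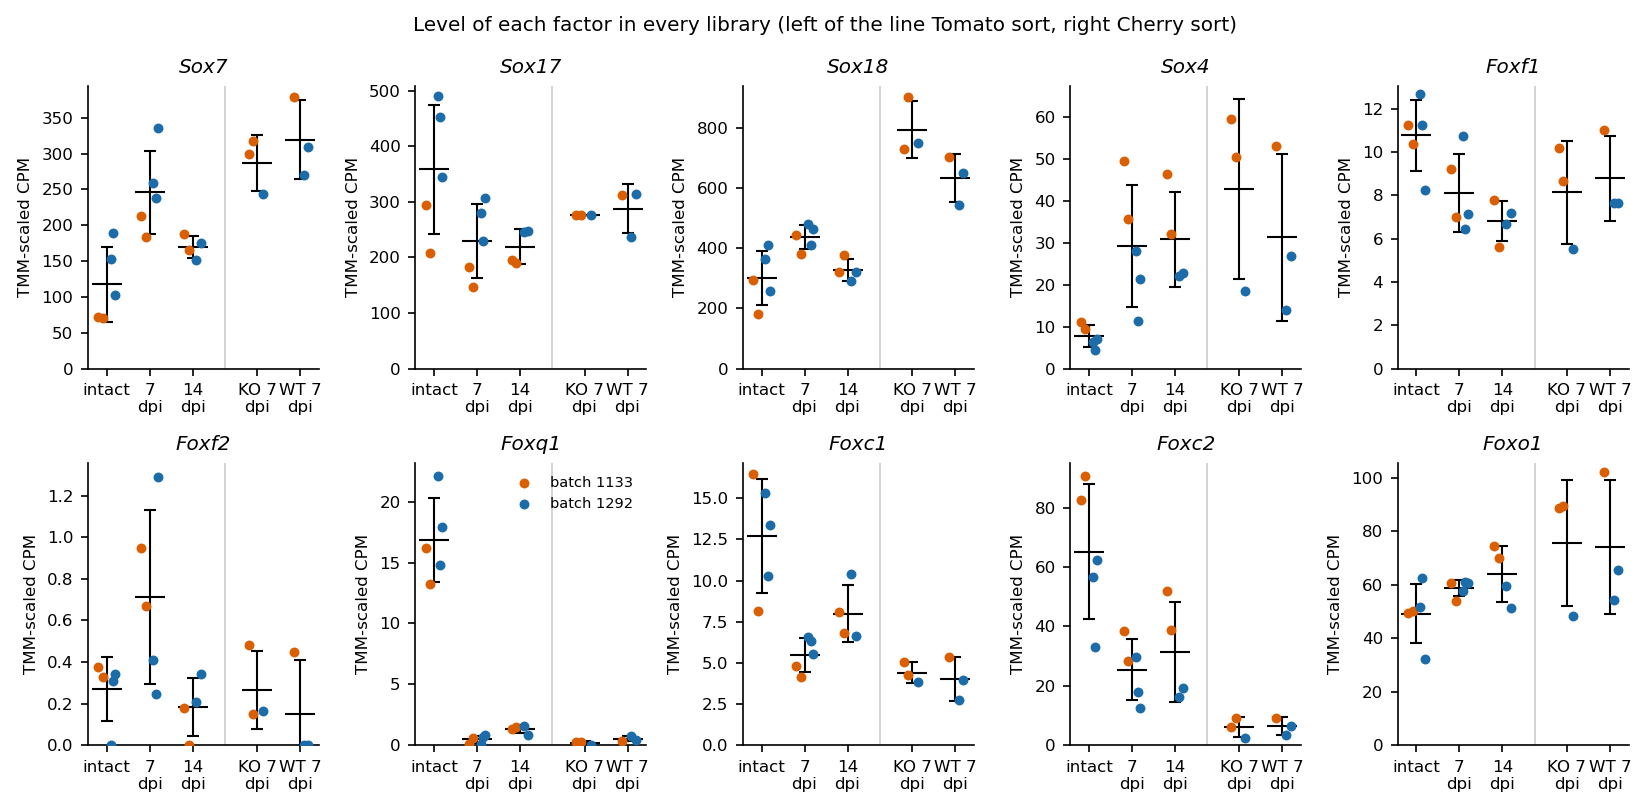
TMM-scaled CPM (y, linear, each panel with its own scale) of the 10 factors in every library, by group (x), with batch 1133 in orange and batch 1292 in blue; horizontal bars are means and whiskers are SD. Foxq1 is at 13.3 to 22.1 CPM in intact libraries and at 1.56 CPM or less at 7 and 14 dpi, and all Sox4 values at 7 and 14 dpi lie above the highest intact value of 11 CPM.

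At 7 dpi, 3 of the 10 factors were higher than in intact nerve (Sox7, Sox18 and Sox4), 4 were lower (Sox17, Foxq1, Foxc1 and Foxc2) and 3 did not pass the test (Foxf1, Foxf2 and Foxo1). A gene was called at an edgeR adjusted p under 0.05 over 20409 genes, of which 32% were called, 15.7% higher and 16.3% lower. The median log2 fold change was -0.07 over the 10 factors and -0.10 over all tested genes. Groups did not overlap for 3 factors (Sox4, Foxq1 and Foxc1), against 21.6% of all tested genes. Within both batches at once they did not overlap, in 1 direction, for all 7 called factors, against 30.1% of all tested genes.

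The SoxF factors moved in different directions. Sox7, which acts in the early vascular lineage, had 153.3, 190, 102, 72.3 and 69.8 CPM in intact libraries, 258, 239, 336, 213 and 183 CPM at 7 dpi and 151.7, 175, 187 and 165 CPM at 14 dpi. It was lowest in the last 2 intact libraries, both of batch 1133, and a single 7 dpi library lay below the highest intact one. At 7 dpi it rose by 1.11 ± 0.21 on the log2 scale (SE; edgeR adjusted p = 0.000488), by 1.51 in batch 1133 and by 0.92 in batch 1292. At 14 dpi its change of 0.68 ± 0.22 missed the threshold (edgeR adjusted p = 0.0575), with 1.38 in batch 1133 and 0.13 in batch 1292, and DESeq2 called it (adjusted p = 0.0149).

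Sox17, a factor of arterial identity, had 491, 452, 345, 295 and 208 CPM in intact libraries, 279, 229, 308, 183 and 146 CPM at 7 dpi and 246, 247, 195 and 189.5 CPM at 14 dpi. The pooled groups overlapped and the 1133 libraries were the lowest of each group, but within each batch every library at 7 or 14 dpi lay below every intact one. Sox17 fell at 7 dpi (log2 fold change -0.64 ± 0.15, SE; edgeR adjusted p = 0.00291) and at 14 dpi (-0.60 ± 0.16; adjusted p = 0.019). The 7 dpi change was -0.60 in batch 1133 and -0.65 in batch 1292, and the 14 dpi change was -0.33 and -0.82. The 14 dpi call was lost without the intact library of 491 CPM (edgeR adjusted p = 0.0503) or the 14 dpi library of 247 CPM (adjusted p = 0.076), without the batch term (adjusted p = 0.107) and without the filter on low counts (adjusted p = 0.0762). In batch 1133 alone it was lost as well (edgeR adjusted p = 0.635). The 7 dpi call was lost without the batch term (adjusted p = 0.0535) and in batch 1133 alone (adjusted p = 0.407).

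Sox18, a factor of vessel and lymphatic development, had 365, 412, 259, 297 and 182 CPM in intact libraries, 481, 413, 466, 446 and 381 CPM at 7 dpi and 292, 323, 321 and 379 CPM at 14 dpi. Only the lowest 7 dpi library fell inside the intact range, whereas the 14 dpi values lay within it. Sox18 rose at 7 dpi by 0.54 ± 0.17 on the log2 scale (SE; edgeR adjusted p = 0.025). The rise was 0.80 in batch 1133 and 0.40 in batch 1292, neither called alone, and the call was lost without the 7 dpi library of 481 CPM (adjusted p = 0.0553) or that of 446 CPM (adjusted p = 0.0506). Pecam1, an endothelial adhesion molecule, averaged 2290 ± 393 CPM at 7 dpi and 1380 ± 522 CPM in intact nerve (SD, n = 5 each). At 7 dpi 8 of the 15 pan-endothelial markers rose and 2 fell, against 15.7% and 16.3% of all tested genes. With the mean of those markers in the model, the 7 dpi log2 fold change was 0.23 for Sox18 (edgeR adjusted p = 0.179), 0.74 for Sox7 (adjusted p = 0.00141) and -0.87 for Sox17 (adjusted p = 0.000101).

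The makeup of the SoxF total shifted after injury. Summed over Sox7, Sox17 and Sox18, the level was 697 ± 192 TPM in intact nerve, 868 ± 114 TPM at 7 dpi and 664 ± 61.8 TPM at 14 dpi (SD, n = 5, 5 and 4). Sox17 made up 30.6, 26.1, 30.6, 26 and 27.5% of it in intact libraries, 15.4, 14.6, 16.2, 11.6 and 10.9% at 7 dpi and 21, 19.3, 15.7 and 14% at 14 dpi. Every intact share lay above every share after injury. The Sox7 share averaged 11.2 ± 2.1% in intact nerve, 18.5 ± 2.1% at 7 dpi and 16.7 ± 1.5% at 14 dpi, and the Sox18 share averaged 60.6 ± 3.4%, 67.8 ± 4.2% and 65.8 ± 3.5% in the same order.

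The shift was tested as log2 ratios of counts between paralogs, which cancel the scaling of a library, in 12 two-sided exact permutation tests adjusted together. These ratios are not per length, so their sign gives no order of abundance. The Sox17 to Sox18 ratio averaged -0.98 ± 0.34 at 7 dpi and 0.23 ± 0.19 in intact nerve (SD, n = 5 each; exact permutation p = 0.00794, adjusted p = 0.0317). At 14 dpi it averaged -0.59 ± 0.34 (n = 4), also below intact nerve (exact permutation p = 0.00794, adjusted p = 0.0317). The Sox7 to Sox18 ratio averaged -0.86 ± 0.24 at 7 dpi and -1.43 ± 0.36 in intact nerve (n = 5 each; exact permutation p = 0.00794, adjusted p = 0.0317). Its 14 dpi difference of 0.47 from intact nerve did not pass (exact permutation p = 0.0317, adjusted p = 0.0762). Permuted within batches, none of the 12 tests passed, and the 3 calls had an adjusted p of 0.0667 each (exact permutation). Few arrangements are left there, so the smallest p the test can give could hardly pass after adjustment. Without intact replicate 4, none of the 12 tests passed either. The 14 dpi call of Sox17 to Sox18 was lost without any 1 of its 9 libraries (exact permutation, adjusted p = 0.0714 to 0.114). With fewer libraries the smallest p the test can give is higher, so this loss cannot show that a single library carried the call. The difference stayed at -0.93 to -0.68, and every 14 dpi ratio lay below every intact one. With 1 of the 14 libraries left out in turn, the 7 dpi call of Sox7 to Sox18 was lost in 6 cases. That of Sox17 to Sox18 at 7 dpi was lost in 1. The ratios of Foxc2 to Foxc1 and of Foxf2 to Foxf1 gave no called difference.

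**Figure D2:**
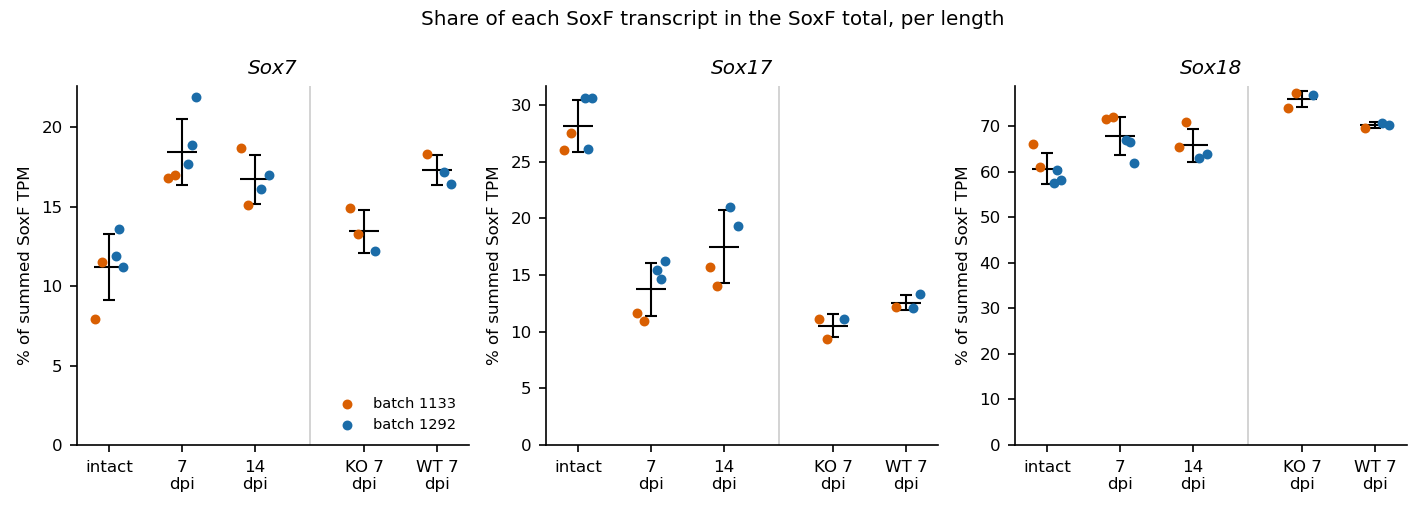
Share of Sox7, Sox17 and Sox18 in the summed SoxF TPM (y, %, from 0) of every library by group (x), with batch 1133 in orange and batch 1292 in blue; horizontal bars are means and whiskers are SD. The Sox17 share lies at 26% or above in intact libraries and at 21% or below in all others, and the Sox7 share of the KO libraries (12.2 to 14.9%) lies below that of the WT libraries (16.4 to 18.3%). The Sox17 and Sox18 shares of KO and WT libraries do not overlap either.

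Sox4, a SoxC factor of progenitor and migrating cells, had 6.38, 4.49, 6.93, 11 and 9.51 CPM in intact libraries, 27.9, 11.2, 21.2, 49.5 and 35.6 CPM at 7 dpi and 22.1, 22.7, 46.2 and 32 CPM at 14 dpi. Every library after injury was above every intact library, the closest being 11.2 CPM at 7 dpi and 11 CPM in intact nerve. Sox4 rose by 1.88 ± 0.22 at 7 dpi (log2, SE; edgeR adjusted p = 5.04e-06), to 3.68 times the intact level, and by 1.91 ± 0.23 at 14 dpi (adjusted p = 2.85e-05). The call held in each of 10 alternative analyses of either comparison and without any 1 library. Batch moved Sox4 too: its level was 0.90 ± 0.18 higher on the log2 scale in batch 1133 than in batch 1292 (SE; edgeR adjusted p = 0.00265), yet the 7 dpi rise was 2.07 in batch 1133 and 1.76 in batch 1292. Over all tested genes, 14.6% were called for batch.

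Foxq1, a barrier factor of brain endothelium, had the largest fold change of the 10 against intact nerve. It had 22.1, 14.8, 17.9, 16.2 and 13.3 CPM in intact libraries, 0.102, 0.689, 0.791, 0.119 and 0.582 CPM at 7 dpi and 1.56, 0.831, 1.32 and 1.51 CPM at 14 dpi. The groups were wholly separate, and the 7 dpi values rested on 2, 14, 19, 3 and 20 counts. Against intact nerve the log2 fold change was -5.17 ± 0.41 at 7 dpi (SE; edgeR adjusted p = 9.9e-08), or 0.0278 of the intact level, and -3.65 ± 0.41 at 14 dpi (adjusted p = 1.85e-05). Both calls held in each of 10 alternative analyses and without any 1 library. In the Cherry experiment Foxq1 had 0, 9 and 6 counts in KO and 19, 12 and 8 counts in WT, too few to be tested.

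Foxc1, a regulator of arterial and mural development, had 15.3, 10.3, 13.4, 16.5 and 8.16 CPM in intact libraries, 6.59, 6.34, 5.54, 4.79 and 4.16 CPM at 7 dpi and 10.4, 6.65, 8.09 and 6.78 CPM at 14 dpi. All 7 dpi libraries were below all others. Foxc1 fell by 1.23 on the log2 scale at 7 dpi (log2 fold change -1.23 ± 0.21, SE; edgeR adjusted p = 0.000268), with -1.46 in batch 1133 and -1.07 in batch 1292. At 14 dpi its change of -0.66 ± 0.22 missed the threshold (edgeR adjusted p = 0.0709), and DESeq2 called it (adjusted p = 0.0153).

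Foxc2, known for lymphatic valves and arteries, had 56.7, 33.1, 62.4, 82.7 and 90.9 CPM in intact libraries, 29.6, 18, 12.4, 38.4 and 28.5 CPM at 7 dpi and 16, 19.1, 51.8 and 38.7 CPM at 14 dpi. The 1133 libraries were the highest of each group except at 7 dpi, where 28.5 CPM lay just below a 1292 library, and the pooled groups overlapped. Within each batch every library at 7 or 14 dpi was below every intact one. Foxc2 fell at 7 dpi (log2 fold change -1.36 ± 0.23, SE; edgeR adjusted p = 0.000195), with -1.34 in either batch, and at 14 dpi (-1.23 ± 0.25; adjusted p = 0.00283), with -0.86 in batch 1133 and -1.55 in batch 1292. The 14 dpi call was lost without the batch term (edgeR adjusted p = 0.116) and in batch 1133 alone (adjusted p = 0.179).

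Foxf1, a factor of lung endothelium and mesenchyme, had 12.7, 11.3, 8.27, 11.3 and 10.4 CPM in intact libraries, 10.7, 6.44, 7.12, 9.22 and 7.01 CPM at 7 dpi and 6.7, 7.18, 7.79 and 5.64 CPM at 14 dpi. The 14 dpi libraries were all below the intact ones, and the 7 dpi libraries spanned both. Foxf1 fell at 14 dpi (log2 fold change -0.66 ± 0.20, SE; edgeR adjusted p = 0.044), and this call was lost in 7 of the 9 analyses that left out 1 library. The call was lost as well in 5 of 10 alternative analyses. Among them were the fits without the batch term (edgeR adjusted p = 0.063), in batch 1133 alone (adjusted p = 0.392) and in batch 1292 alone (adjusted p = 0.235). At 7 dpi the change of Foxf1 was -0.41 ± 0.19 (edgeR adjusted p = 0.112). Foxf2, which brain pericytes also make, was near the limit of detection, with 0 to 11 counts in intact libraries, 5 to 31 at 7 dpi and 0 to 9 at 14 dpi. No difference was called for Foxf2 (log2 fold change 1.38 ± 0.94 at 7 dpi, edgeR adjusted p = 0.307, and -0.57 ± 1.03 at 14 dpi, adjusted p = 0.836).

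Foxo1 had 51.6, 62.6, 32, 49.5 and 50.1 CPM in intact libraries, 57.6, 61.1, 60.6, 60.5 and 53.7 CPM at 7 dpi and 59.6, 51.2, 74.6 and 70 CPM at 14 dpi. Its groups overlapped, and the SD was 3.11 CPM at 7 dpi against 11 CPM in intact nerve. Its log2 fold change came to 0.26 ± 0.15 at 7 dpi (SE; edgeR adjusted p = 0.234) and 0.36 ± 0.16 at 14 dpi (adjusted p = 0.189).

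At 14 dpi, 1 factor was higher than in intact nerve (Sox4), 4 were lower (Sox17, Foxf1, Foxq1 and Foxc2) and 5 did not pass, while 12% of all tested genes were called, 6.86% higher and 5.09% lower. Groups did not overlap for Sox4, Foxf1 and Foxq1, against 9.87% of all genes, and within both batches at once for the 5 called factors, against 16.2%. The median log2 fold change was -0.58 over the 10 factors and 0.00 over all genes. Since the 7 dpi and 14 dpi comparisons share the intact libraries, they are not independent of each other.

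Between 14 dpi and 7 dpi, 1 factor was called, Foxq1, which was higher at 14 dpi by 1.52 ± 0.42 (log2, SE; edgeR adjusted p = 0.0312), where 9.93% of all tested genes were called, 5.73% of all tested genes higher and 4.2% lower. The call was lost without any of 14 dpi replicates 1, 3 or 4 (adjusted p = 0.0734, 0.074 and 0.0709) or 7 dpi replicate 4 (adjusted p = 0.0712), and it was 1.99 in batch 1133 and 1.10 in batch 1292, neither called. With only the 2 compared groups in the fit, the call of Foxq1 was lost (adjusted p = 0.134), and Sox7 (-0.49; adjusted p = 0.0456) and Sox18 (-0.41; adjusted p = 0.0348) were called lower at 14 dpi instead. Groups did not overlap for Foxq1 and Foxc1, which were higher at 14 dpi, and for Sox18, which was lower, against 10.8% of all genes, and these 3 were also separate within both batches, against 18.5%. With all 3 groups in the fit, Foxc1 (0.58 ± 0.23; adjusted p = 0.13), Sox18 (-0.38 ± 0.19; adjusted p = 0.246) and Sox7 (-0.43; adjusted p = 0.272) were not called. Sox17 (0.04 ± 0.16) and Sox4 (0.03 ± 0.22) had the smallest differences of the 10.

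**Figure D3:**
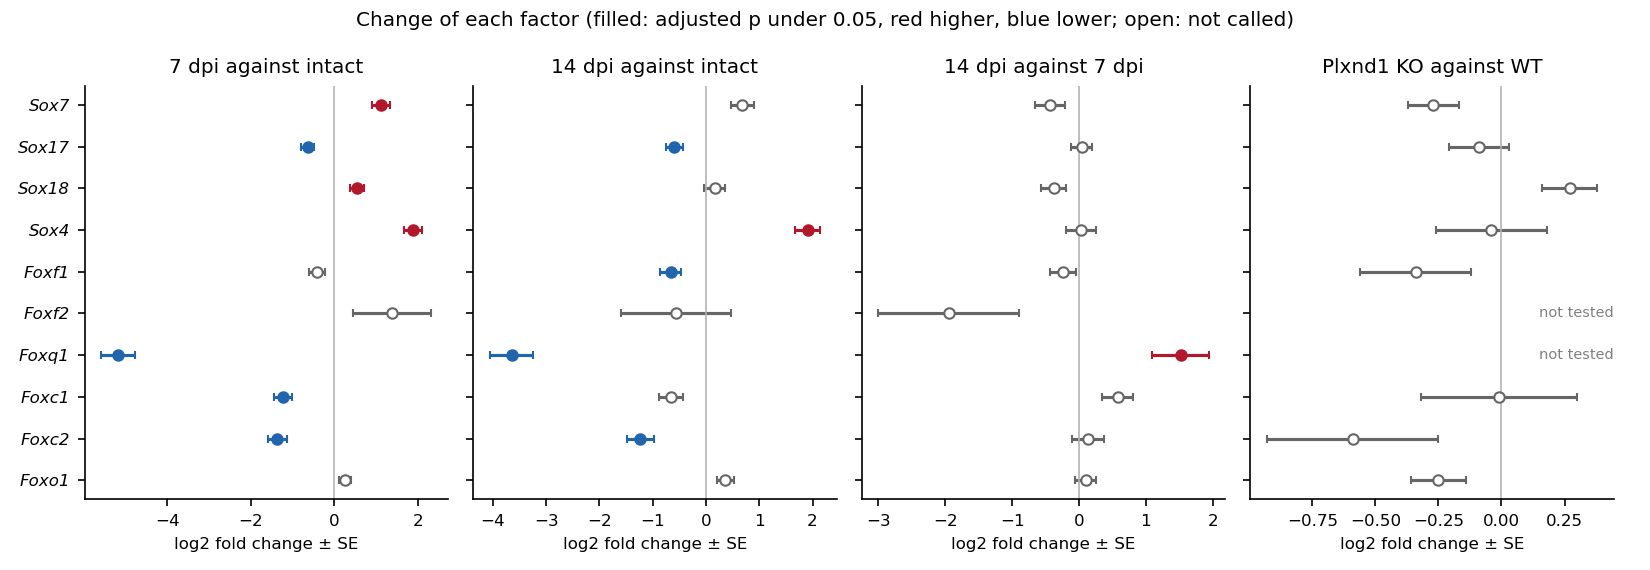
Log2 fold change with its SE (x, each panel with its own scale) of the 10 factors (y) in 4 comparisons; filled points passed an edgeR adjusted p of 0.05, red higher and blue lower, and open points did not pass. Foxq1 at -5.17 and -3.65 and Sox4 at 1.88 and 1.91 are the extremes against intact nerve, and no factor passed between KO and WT.

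Markers of other cells moved with several of these factors. The counts of called markers stand beside 15.7% of all tested genes called higher and 16.3% lower at 7 dpi. At 14 dpi these shares were 6.86% and 5.09%. The 6 perineurial markers, genes of the sheath around nerve fascicles, summed to 2430 to 5330 CPM in intact libraries, 359 to 1020 CPM at 7 dpi and 1320 to 3050 CPM at 14 dpi, and all 6 fell at 7 dpi. The 10 mural markers summed to 1970 to 2790 CPM, 855 to 2230 CPM and 1070 to 3610 CPM in the same order, and 6 of them fell at 7 dpi. No gene of either list was at 0 throughout a group. The 10 arterial markers summed to 951 to 1750 CPM in intact libraries, 1290 to 1930 CPM at 7 dpi and 1370 to 1720 CPM at 14 dpi. Of these, 4 rose and 3 fell at 7 dpi, where Sox17 fell. The 6 venous markers summed to 930 to 2730 CPM in intact libraries, 3800 to 5380 CPM at 7 dpi and 2750 to 3280 CPM at 14 dpi, and 5 of them rose and 1 fell at 7 dpi, where Sox7 and Sox18 rose. The 6 lymphatic endothelial markers summed to 325 to 766 CPM, 314 to 525 CPM and 216 to 335 CPM in the same order, with Ccl21a at 0 throughout the intact and the 14 dpi libraries, and 2 of the 5 tested fell at 7 dpi, where Foxc2 fell. The 10 Schwann cell markers summed to 602 to 1050 CPM in intact libraries, 174 to 250 CPM at 7 dpi and 716 to 2520 CPM at 14 dpi, and 7 of the 9 tested fell at 7 dpi. Of the 8 fibroblast markers, 5 rose and 1 fell at 7 dpi, and 6 rose and 0 fell at 14 dpi. Sox4 also rose at both times. The part of the fibroblast, arterial, venous, lymphatic and Schwann cell markers in the changes of the factors was not tested. With the mean of the perineurial markers in the model, Foxq1 (-5.91, edgeR adjusted p = 0.00212) and Sox4 (2.14, adjusted p = 0.0315) were still called at 7 dpi. Foxc2 then had a log2 fold change of -0.02 (adjusted p = 0.984), Foxc1 of -0.71, Sox7 of 0.56, Sox18 of 0.55 and Sox17 of -0.83, none of them called. At 14 dpi with that mean in the model, Sox4 (2.00, edgeR adjusted p = 0.000309), Foxq1 (-3.91, adjusted p = 8.01e-05), Foxc2 (-0.75, adjusted p = 0.0473) and Sox17 (-0.67, adjusted p = 0.0474) were still called, and Foxf1 (-0.60, adjusted p = 0.186) was not. The summed perineurial level itself did not overlap between 7 dpi and intact libraries, and 762 genes were called in the 7 dpi comparison of that fit. The perineurial and mural part in the changes of Foxc1 and Foxc2 was otherwise not tested.

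Levels of the factors were also read in the Cherry sort of the 7 dpi bridge, which was normalized separately, so the values are set side by side with no test. Foxc2 averaged 25.4 ± 10.2 CPM in the Tomato libraries at 7 dpi (SD, n = 5) and 6.31 ± 2.99 CPM in Cherry WT libraries (n = 3). Sox18 averaged 437 ± 40.4 CPM and 635 ± 81 CPM, and Sox7 246 ± 57.8 CPM and 319 ± 54.8 CPM, in the same order. Sox17 averaged 229 ± 66.6 CPM and 287 ± 44.2 CPM, Sox4 29.1 ± 14.5 CPM and 31.2 ± 19.9 CPM, and Foxc1 5.48 ± 1.03 CPM and 4.02 ± 1.32 CPM. The ranges of Foxc2 and of Sox18 did not overlap between the sorts, and those of the other 4 did, as did those of Foxf1, Foxf2, Foxq1 and Foxo1. Perineurial markers summed to 359 to 1020 CPM in the Tomato libraries and 256 to 284 CPM in Cherry WT. Lymphatic endothelial markers summed to 314 to 525 CPM and 96.7 to 171 CPM, and fibroblast markers to 4430 to 19700 CPM and 921 to 2290 CPM, in the same order. Venous markers were higher in Cherry WT (3800 to 5380 CPM and 6170 to 7800 CPM), and pan-endothelial markers overlapped (9710 to 14900 CPM and 14800 to 16000 CPM). The part of these markers in the differences between the sorts was not tested.

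**Figure D4:**
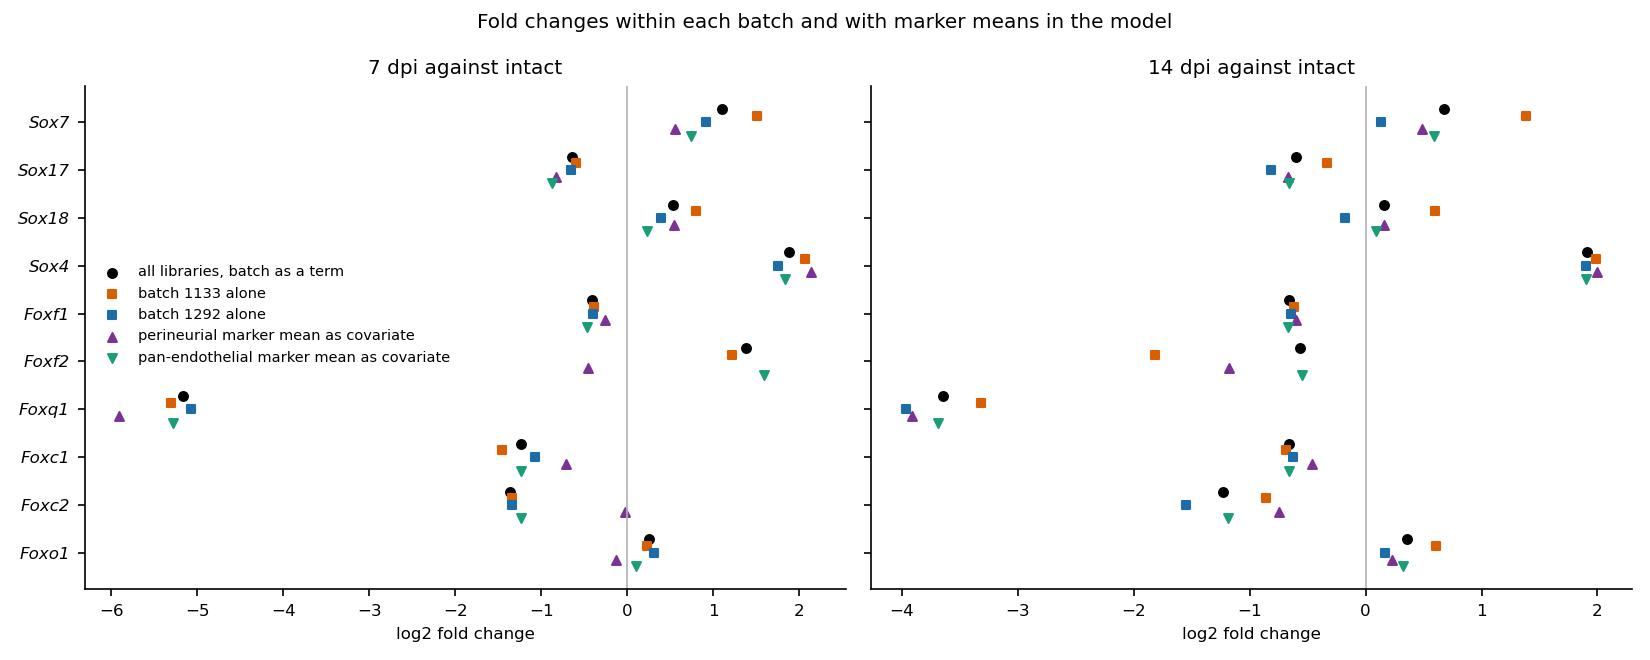
Log2 fold change (x) of the 10 factors (y) at 7 and 14 dpi against intact nerve with all libraries (black circles), in batch 1133 (orange squares) and batch 1292 (blue squares) alone, and with the mean of perineurial (purple triangles) or pan-endothelial markers (green triangles) in the model; Foxf2 did not pass the filter in batch 1292. Foxc2 at 7 dpi is at -1.34 in both batches and at -0.02 with the perineurial mean, while Foxq1 and Sox4 stay apart from 0 in every fit.

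Genes beside the forkhead clusters were read in the same fit. On chromosome 8, Fendrr, 1276 bases from Foxf1, fell at 7 dpi (log2 fold change -1.81 ± 0.29, SE; edgeR adjusted p = 0.000131) and 14 dpi (-1.52 ± 0.31; adjusted p = 0.00318). Foxl1, a forkhead gene of mesenchyme 9045 bases from Foxc2, fell by 2.13 on the log2 scale at 7 dpi and by 2.86 at 14 dpi (edgeR adjusted p = 0.000886 and 0.000646). Mthfsd, which lies between Foxf1 and Foxc2, rose at 7 dpi by 0.56 ± 0.12 (adjusted p = 0.00182). Foxf1, between Fendrr and Mthfsd, had a log2 fold change of -0.41 at 7 dpi and -0.66 at 14 dpi, and its difference from these neighbours was not tested. On chromosome 13, Foxq1 and Foxc1 fell at 7 dpi, Foxf2 between them was not called, and Gmds, an enzyme of GDP-fucose synthesis 7103 bases from Foxc1, rose by 0.87 ± 0.16 (edgeR adjusted p = 0.00055).

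**Figure D5:**
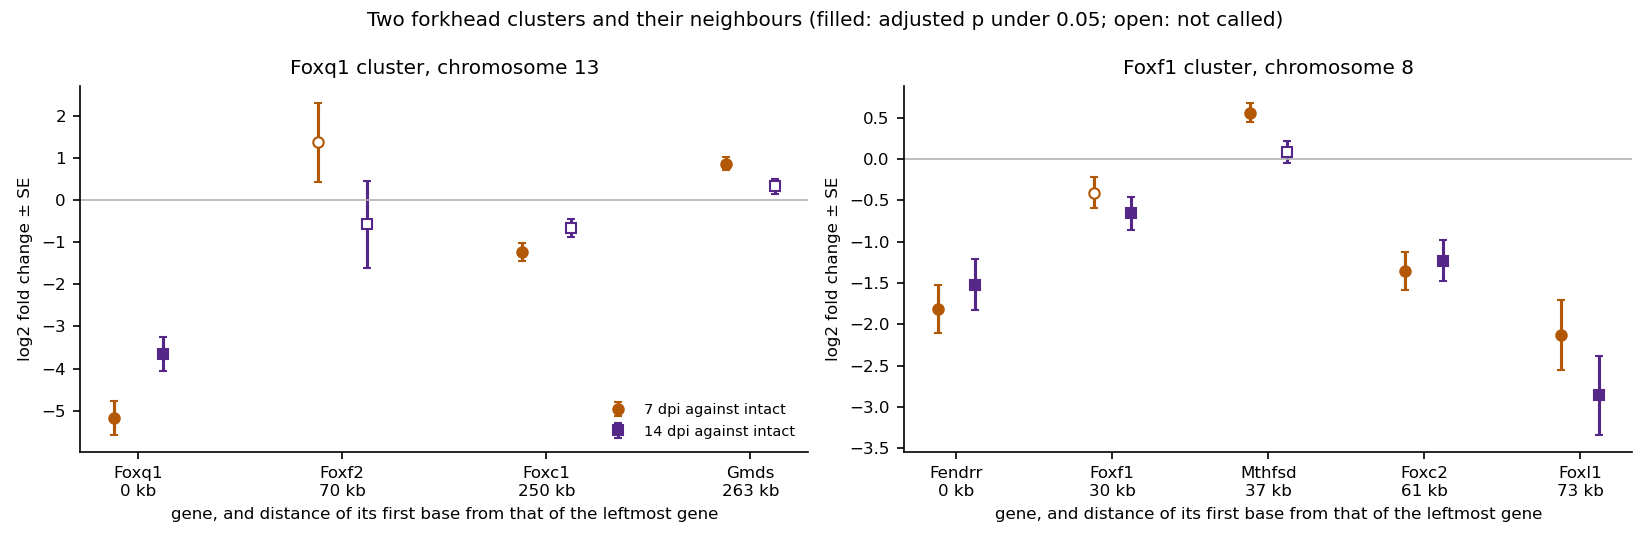
Log2 fold change with its SE (y) at 7 dpi (circles) and 14 dpi (squares) against intact nerve for the genes of the Foxq1 and Foxf1 clusters in their order along the chromosome, with the distance of each gene's first base from that of the leftmost gene in kb; filled points passed an edgeR adjusted p of 0.05. Fendrr, Foxc2 and Foxl1 lie below -1 at both times, while Mthfsd and Gmds lie above 0.

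Of other genes of the same families, 9 of 15 Sox genes and 18 of 38 forkhead genes passed the filter on low counts. At 7 dpi, where 15.7% of all tested genes were called higher and 16.3% lower, no further Sox gene rose and 2 fell, Sox9, a factor of mesenchyme and glia (log2 fold change -1.34 ± 0.29, SE; edgeR adjusted p = 0.00184), and Sox5 (-0.66 ± 0.25; adjusted p = 0.0487). Sox9 averaged 35.3 ± 15.3 CPM at 7 dpi and 88.3 ± 22.6 CPM in intact nerve (SD, n = 5 each), but 0.966 ± 0.553 CPM in Cherry WT libraries (n = 3). Of the further forkhead genes, 1 rose and 7 fell at 7 dpi, with a median log2 fold change of -0.51 against -0.10 over all tested genes. Foxm1, a driver of mitosis, was the one that rose, by 3.58 ± 0.28, to 24.2 ± 4.78 CPM at 7 dpi against 2.01 ± 0.474 CPM in intact nerve, and Foxo6 (-3.07 ± 0.70), Foxl1 and Foxo3 (-0.83 ± 0.17), a relative of Foxo1, were among those that fell. At 14 dpi, Sox10, a Schwann cell factor, rose (2.39 ± 0.72; adjusted p = 0.0404) and Sox9 fell (-0.99 ± 0.31; adjusted p = 0.0486), and Foxm1 rose (1.73 ± 0.28) while Foxl1 and Foxo3 (-0.64 ± 0.19) fell. Of 10 Schwann cell markers, Sox10 included, 9 were tested and 5 of them rose at 14 dpi, against 6.86% of all tested genes.

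Pathway genes around the factors were counted from lists of reported relations. The lists were not split by whether a factor is reported to raise or to lower a gene, so the counts give no direction of its activity. At 7 dpi these counts stand beside 15.7% of all tested genes called higher, 16.3% called lower and a median log2 fold change of -0.10. Of 18 tested genes of Wnt signalling in barrier endothelium, 2 rose and 8 fell at 7 dpi, with a median log2 fold change of -0.65. Axin2, a feedback target of Wnt signalling, averaged 1.98 ± 0.656 CPM at 7 dpi and 18.9 ± 7.23 CPM in intact nerve, and Lef1, its nuclear effector, 7.56 ± 3.46 CPM and 56.9 ± 17.5 CPM (SD, n = 5 each). Between 14 and 7 dpi, where 5.73% of all tested genes were called higher, 6 of the 18 rose, among them Axin2 (1.40 ± 0.27; edgeR adjusted p = 0.0032) and Lef1 (1.11 ± 0.22; adjusted p = 0.004), and 1 fell (Adgra2, a Wnt coreceptor, -0.78 ± 0.18).

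Of 13 genes reported as SoxF or FoxC targets, 5 rose and 2 fell at 7 dpi, against 15.7% and 16.3% of all tested genes, with a median log2 fold change of 0.18 against -0.10. The rises included Cxcr4, a chemokine receptor (3.17 ± 0.27), and Itgb3, an integrin subunit (2.31 ± 0.21), both reported for FoxC factors. The falls were Cldn5, a tight junction protein reported for Sox18 (-2.33 ± 0.18), and Hey2, a Notch effector (-1.70 ± 0.31). The list shares Cdh5, Kdr, Robo4 and Cldn5 with the pan-endothelial markers.

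Of 20 genes reported as Foxo1 targets, 5 rose and 9 fell at 7 dpi, against 15.7% and 16.3% of all tested genes, with a median log2 fold change of -0.34 against -0.10, while Foxo1 itself was not called. Bcl2l11, a promoter of cell death (1.49 ± 0.19), Trib1 (1.48 ± 0.23) and Angpt2, an angiopoietin (1.28 ± 0.20), rose. Pdk4, a kinase that restrains glucose oxidation (-1.91 ± 0.20), Sesn1 (-1.82 ± 0.19) and Pik3ip1, an inhibitor of PI3K (-1.50 ± 0.15), fell. Between 14 and 7 dpi, 5 of the 20 rose, against 5.73% of all tested genes, and none fell by edgeR, led by Sesn1 (1.21 ± 0.19) and Txnip (1.00 ± 0.17).

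None of the 8 factors tested in the Cherry experiment was called between KO and WT, where 0.308% of 16227 genes were called by edgeR. At an unadjusted p under 0.05 there were 3 of 8 (Sox7, Sox18 and Foxo1), against 11.5% of all tested genes, and DESeq2 called 0. Within both batches, where 1 library stands against 2, 5 of the 8 did not overlap in 1 direction (Sox18 higher; Sox7, Foxf1, Foxc2 and Foxo1 lower), against 33.3% of all genes. Sox18 had 751, 731 and 905 CPM in KO, against 546, 653 and 705 CPM in WT. Its groups did not overlap, as for 11.8% of all genes, and its log2 fold change of 0.27 ± 0.11 (SE) had an edgeR adjusted p of 0.4. Sox7 had 243, 300 and 318 CPM in KO, against 270, 310 and 378 CPM in WT. The KO libraries were lower within each batch although the pooled groups overlapped, with a log2 fold change of -0.27 ± 0.10 (adjusted p = 0.318), -0.29 in batch 1133 and -0.25 in batch 1292.

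Sox17 was the steadiest of the 10 in the KO libraries, at 276, 277 and 276 CPM, against 236, 313 and 312 CPM in WT (log2 fold change -0.09 ± 0.12, SE). Within the SoxF total, Sox7 made up 12.2, 14.9 and 13.3% in KO and 17.2, 16.4 and 18.3% in WT. The KO shares of Sox7 all lay below its WT shares. The other shares were separate too: Sox17 made up 11.1, 11.1 and 9.34% in KO and 12.1, 13.3 and 12.2% in WT. Sox18 made up 76.7, 74 and 77.3% in KO and 70.7, 70.3 and 69.5% in WT. As parts of 1 total, the shares are not independent of each other, and 3 libraries against 3 cannot give an exact permutation p below 0.1. Foxo1 had 48.4, 88.8 and 89.6 CPM in KO, against 54.4, 65.4 and 102 CPM in WT, and in both groups the 1133 libraries were the highest. Its log2 fold change with batch in the model was -0.25 ± 0.11 (edgeR adjusted p = 0.43), and its batch difference of 0.83 ± 0.11 was larger (adjusted p = 0.00136), where 9.87% of all genes were called for batch.

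Sox4 had 18.5, 59.4 and 50.4 CPM in KO, against 14, 26.7 and 53 CPM in WT, and the batch difference of 1.47 ± 0.23 (log2, 1133 over 1292; edgeR adjusted p = 0.00426) exceeded the genotype difference of -0.04 ± 0.22. Foxf1 (-0.34 ± 0.22), Foxc1 (-0.01 ± 0.31) and Foxc2 (-0.59 ± 0.34; adjusted p = 0.528) were not called. The 6 perineurial markers summed to 128 to 158 CPM in KO and 256 to 284 CPM in WT. Of these markers, 1 of the 3 tested fell, against 0.179% of all tested genes, and their part in the difference of Foxc2 was not tested. Foxf2 had 3, 16 and 4 counts in KO and 0, 0 and 11 counts in WT and was not tested. The 2 batches hold 1 and 2 libraries of each genotype, so batch and genotype are partly entangled in raw group means.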

How the data were processed

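Whole-number raw counts per gene were deposited by the authors, 1 table per experiment, with a further table of Cherry counts that they corrected with ComBat-Seq, per the file headers and names; the corrected table served an alternative. Per the submitters' processing notes, Trimmomatic 0.39, STAR 2.5.3a, featureCounts 1.6.4 and Cell Ranger 3.0.2 were used with build mm10 (GRCm38). The role of each tool is not given in the sources used here. Per the labels' protocols, tissue was digested for 30 min at 37 C and reporter-positive, CD45-negative cells were sorted for polyA RNA.

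Raw counts of the 14 Tomato and 6 Cherry libraries were fitted separately in edgeR 4.0.16 (R 4.3.3): filterByExpr, TMM, robust quasi-likelihood F test, batch as a term and Benjamini-Hochberg adjustment over all tested genes (20409 and 16227). The SE is the absolute log2 fold change over the square root of F. TPM came from counts and the deposited exon lengths. Paralog ratios used counts with 0.5 added. Replicate libraries were not duplicates (chi-square per degree of freedom of 15.4 to 121 over 32 pairs). The code was tested on simulated data. DESeq2 1.42.0, other scalings and filters, each batch alone, marker covariates and leaving out libraries were tried. Positions of the 10 genes in the deposited tables were the same in GENCODE M21.

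The 10 members and all gene lists were chosen with earlier results of these data known. All 10 members are described. The naming rule allows, per list and comparison, up to 2 called genes of the greatest rise and 2 of the greatest fall and the first 2 symbols, and tested genes within 200 kb of a member. Axin2, Angpt2, Pik3ip1 and, at 7 dpi, Foxo3 lie outside it and were chosen after their values were seen. The genes most like Foxc2 are not reported here.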

Additional observations from a re-analysis of the deposited data

Results flagged for a closer look

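Foxf2 was 0 CPM in intact replicate 1, while the other 4 intact libraries held 0.31 to 0.374 CPM. The sample stood far from the others (gap over range 0.83, above the critical value of 0.71). This was the single case among 30 pairs of a factor and a group, where chance flags about 1 in 20, and those other values rest on 6 to 11 counts. The 14 dpi replicate 4 of Foxf2 was also at 0 counts, as were WT replicates 1 and 2.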

How the results depend on the processing

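Of 1034 results recomputed under an alternative, 879 kept direction and side of the threshold, 60 lost the call, 16 gained it, 42 turned sign and 37 counts moved by over 1.5 times. The cause was not tested. Sox4 and Foxq1 were called at 7 and 14 dpi against intact nerve under all alternatives run. No paired analysis was possible because the labels carry no replicate numbers shared between groups; the titles hold running numbers, and sets read from their order were not used. At 7 dpi against intact, batch 1133 alone called 2042 genes and 4 members, and the perineurial covariate 762 and 2. At 14 dpi against intact, members called were 2 without the batch term, 3 in batch 1133 and 3 to 6 leaving out a library; genes called were 795 in batch 1133, 1500 in batch 1292 and 1587 with the perineurial covariate. Between 14 and 7 dpi, genes called were 3227 by DESeq2, 1226 without the batch term, 366 in batch 1133, 726 in batch 1292, 90 with the perineurial covariate and 1305 to 1901 leaving out a library. Members called there were 0 without the batch term, in either batch and with the perineurial covariate, 2 with only the compared groups (Sox7 and Sox18, both lower, in place of Foxq1) and 0 to 1 leaving out a library. For KO against WT, genes called were 233 by DESeq2, 230 without a filter, 5 without the batch term, 31 in batch 1292, 550 on ComBat-Seq counts and 6 to 40 leaving out a library. Ratio tests called were 0 within batches, where few arrangements are left, and 0 to 3 leaving out a library.

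Sign changes touched uncalled differences. At 7 dpi against intact with the perineurial covariate, Foxf2 was -0.45 and Foxo1 -0.13. At 14 dpi against intact, Sox18 was -0.18 in batch 1292. Between 14 and 7 dpi, Sox17 was -0.06 without the batch term and -0.17 in batch 1292, Sox4 -0.08 in batch 1133 and -0.13 with the perineurial covariate, Foxc2 -0.21 in batch 1292 and -0.73 with that covariate, and Foxo1 -0.13 in batch 1292. Between KO and WT, Foxc1 was 0.01 with RLE factors, 0.00 by DESeq2, 0.13 without the batch term and 0.20 in batch 1292, Sox4 0.46 without the batch term, 0.05 in batch 1133 and 0.01 on ComBat-Seq counts, Foxo1 0.03 without the batch term and Sox17 0.01 in batch 1292. Leaving out a library gave, between 14 and 7 dpi, -0.04 to 0.33 for Foxc2, -0.05 to 0.10 for Sox17 and -0.13 to 0.16 for Sox4, and between KO and WT -0.19 to 0.19 for Foxc1 and for Sox4. For the log2 ratios it gave -0.57 to 0.12 for Foxc2 to Foxc1 at 14 against 7 dpi, -0.42 to 0.09 for the same at 7 dpi against intact, -0.86 to 0.93 for Foxf2 to Foxf1 at 14 dpi against intact and -0.15 to 0.00 for Sox7 to Sox18 at 14 against 7 dpi. Depth limits Foxf2 everywhere and Foxq1 after injury, which rest on few counts.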

Other observations

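Over the 14 Tomato libraries with batch removed, the patterns most like the factors other than Foxc2 among 10306 genes of average log2 CPM of at least 3 are given as Pearson correlations of log2 CPM, which the injury groups shape in common. Foxq1 was closest to Maob, monoamine oxidase B (0.99), Slco1a4, an organic anion transporter of brain vessels (0.98), and Dusp26 (0.98), which at 7 dpi had log2 fold changes of -3.60, -5.53 and -3.06. Sox17 was closest to Flt1, a VEGF receptor (0.97), Acvrl1, a BMP receptor of vessels (0.95), and Sorbs2 (0.94). Sox7 was closest to Pcdhgc3, Stab1, a scavenger receptor, and Ralgds (0.97 each). Sox18 was closest to Syngr2 (0.98), Ubl7 and Eif4h (0.97 each), and Sox4 to Gimap8 (0.98), Tcf12 (0.96) and Lurap1l (0.95). Foxc1 was closest to Hyi (0.98), Rasgrp2 and Sbds (0.96 each). Foxf1 reached 0.88 (Slc19a1), Foxo1 0.92 (Rnf19b) and the low Foxf2 0.81 (Iws1). Among the factors, Foxq1 and Foxc1 correlated at 0.85, Sox7 and Sox18 at 0.86, Sox17 and Sox18 at -0.15, and Sox4 and Foxq1 at -0.90.

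Within 200 kb of Sox18, 14 of 20 annotated genes were tested, and 5 of them rose at 7 dpi by edgeR, where 15.7% of all tested genes were called higher and 16.3% lower. These were Rgs19, a regulator of G protein signalling 16782 bases away (log2 fold change 1.36 ± 0.13, SE; edgeR adjusted p = 9.54e-07), Tcea2 (0.61), Polr3k (0.54), Uckl1 (0.44) and Tpd52l2 (0.42). Beside Sox17, 2 of 5 tested genes fell, Rp1, a gene of photoreceptors (-2.10 ± 0.43; edgeR adjusted p = 0.00119), and Gm7357 (-2.78; adjusted p = 0.00911). Beside Sox7, 1 of 3 was called, Pinx1, which rose (0.59 ± 0.20; adjusted p = 0.0324), and beside Foxo1, 1 of 5, Gm30074, which rose (2.25; adjusted p = 0.00351).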
